A study of Mus musculus with 4 samples.

Results

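The genes described here are 8 homeobox genes of the Hoxa, Meis and Pbx families, Hoxa5, Hoxa7, Hoxa9, Hoxa10, Meis1, Meis2, Pbx2 and Pbx3. They were chosen by name, as retroviral insertion targets or protein partners of such targets in BXH-2 myeloid leukaemia, and each has a row among the 21889 genes listed for every library. Of the 8 genes, 6 had a mean of 1 FPKM (fragments mapped to a gene, scaled by transcript length and library depth) or more over the 4 libraries and so count as expressed, as did 10066 of all genes. Hoxa10 and Meis2 did not. BXH-2 is an inbred mouse strain in which a retrovirus carried in the germ line causes acute myeloid leukaemia. RNA was sequenced from 4 cell lines of that origin with 1 library each. B117H and B140H are highly resistant to cytarabine (Ara-C), a nucleoside drug that blocks DNA synthesis, with labelled IC50 values of about 160 and 60 µg/ml. B117P and B140P are the sensitive parental lines from which they were made, with labelled IC50 values of about 150 and 110 ng/ml. A resistant line together with its parent makes up a lineage, B117 or B140. The labels give all 4 lines the same history of rising Ara-C concentrations and of passage in medium without the drug, and do not say whether a line is 1 clone.

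HOX proteins are homeodomain transcription factors encoded in clusters, and the order of the genes along a cluster follows the order in which they are used along the body axis. On DNA they act with the TALE homeodomain proteins, a class to which the MEIS and PBX families belong: PBX binds beside HOX, and MEIS joins as a further partner. HOXA genes and MEIS1 are active in blood stem and progenitor cells and are turned down as myeloid cells mature, and the joint activity of Hoxa9 and Meis1 transforms mouse myeloid progenitors. Hoxa7, Hoxa9 and Meis1 are known sites of retroviral insertion in BXH-2 leukaemias. Insertions in these lines were not analysed here.

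The sequences shown first belong to the genes on which the results below turn. Meis1 and Hoxa7 differed between the lineages, and Hoxa9 and Hoxa10 are neighbours of which one was expressed and the other close to 0. RefSeq promoters of the GRCm38.p6 build, 300 bases from 250 before to 50 after the start, were found for 7 of the 8 genes. They are given 5′ to 3′ on the strand of the gene, with each CG dinucleotide in capitals.
Meis1 (chr11:19018920-19019219, minus strand): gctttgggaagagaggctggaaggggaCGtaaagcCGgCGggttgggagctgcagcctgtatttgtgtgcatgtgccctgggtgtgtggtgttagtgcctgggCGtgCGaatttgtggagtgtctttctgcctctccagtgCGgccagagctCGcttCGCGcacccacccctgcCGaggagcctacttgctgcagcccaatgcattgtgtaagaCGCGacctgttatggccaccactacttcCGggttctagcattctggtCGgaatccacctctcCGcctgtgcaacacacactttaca
Hoxa7 (chr6:52218524-52218823, minus strand): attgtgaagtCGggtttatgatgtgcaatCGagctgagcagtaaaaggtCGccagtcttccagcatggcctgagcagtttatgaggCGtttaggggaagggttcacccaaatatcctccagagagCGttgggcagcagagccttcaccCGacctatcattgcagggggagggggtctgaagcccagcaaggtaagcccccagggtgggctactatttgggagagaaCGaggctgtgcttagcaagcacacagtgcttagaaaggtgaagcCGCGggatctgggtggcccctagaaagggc
Hoxa9 (chr6:52227321-52227620, minus strand): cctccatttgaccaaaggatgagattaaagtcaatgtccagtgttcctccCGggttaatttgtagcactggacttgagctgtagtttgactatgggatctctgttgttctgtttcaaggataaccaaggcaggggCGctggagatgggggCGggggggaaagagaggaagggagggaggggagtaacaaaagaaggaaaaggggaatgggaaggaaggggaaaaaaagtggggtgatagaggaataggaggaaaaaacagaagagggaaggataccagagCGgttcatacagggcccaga
Hoxa10, second listed start site (chr6:52234890-52235189, minus strand): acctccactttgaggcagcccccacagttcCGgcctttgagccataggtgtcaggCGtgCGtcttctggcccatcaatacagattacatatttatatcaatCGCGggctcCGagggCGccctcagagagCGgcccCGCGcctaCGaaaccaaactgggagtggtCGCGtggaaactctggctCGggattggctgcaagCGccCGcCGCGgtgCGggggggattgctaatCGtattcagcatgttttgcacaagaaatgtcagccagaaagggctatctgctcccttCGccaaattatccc

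The promoters hold 15 CG dinucleotides in Meis1, 9 in Hoxa7, 4 in Hoxa9 and 21 at this start of Hoxa10, whose first listed start has 12. The median of 32851 promoters in the same table is 7. In the other genes the count is 29 in Hoxa5, 29 in Pbx2 and 13 in Meis2. At least as many CG dinucleotides as in Hoxa9 are found in 68.6% of all promoters, and at least as many as in Hoxa5 in 12.9%. Neither the MEIS core motif TGACAG, held by 19.2% of all promoters, nor the PBX-HOX motif TGATTNAT, held by 3.22%, was found on either strand in these 7 promoters. The counts are of letters in these windows only.

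Levels differed widely among the 8 genes. Hoxa7, a HOXA factor of the middle of the cluster, and Pbx2, a widely expressed PBX cofactor, were higher than the other members in every library. Hoxa7 was at 16.1 FPKM in B117H and 13.6 FPKM in B117P, and at 34.8 FPKM in B140H and 29.7 FPKM in B140P. Pbx2 was at 14.8 FPKM in B117H and 21.0 FPKM in B117P, and at 27.3 FPKM in B140H and 20.7 FPKM in B140P. Hoxa7 stood above 58.1% of the expressed genes in B117H, 51.5% in B117P, 75.6% in B140H and 74.7% in B140P. Both genes are therefore at middle to upper levels among expressed genes.

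Meis1, the MEIS factor that cooperates with Hoxa9 in myeloid transformation, was at 0.0303 FPKM in B117H and listed at 0 in B117P, against 18.8 FPKM in B140H and 14.4 FPKM in B140P. Meis1 was thus on in both B140 lines and at or next to 0 in both B117 lines. Hoxa5, an anterior HOXA factor, was at 5.10 FPKM in B117H and 3.04 FPKM in B117P, and at 6.28 FPKM in B140H and 6.39 FPKM in B140P. Its listed span is shared with Hoxa3, Hoxa4, Hoxa6 and 2700086A05Rik, so the assignment of reads among these genes is uncertain. Pbx3, the PBX cofactor that works with HOXA9 and MEIS1 in human leukaemia cells, was at 2.02 FPKM in B117H and 1.69 FPKM in B117P, and at 7.86 FPKM in B140H and 4.55 FPKM in B140P. All values of Pbx3 in B117 lay under those in B140.

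Hoxa9, the HOXA gene best known for its role in acute myeloid leukaemia, was low in every line. It was at 1.77 FPKM in B117H and 2.43 FPKM in B117P, and at 2.49 FPKM in B140H and 4.97 FPKM in B140P. In B117H its value exceeded that of 7.46% of expressed genes and in B140P that of 24.6%. Hoxa10, its neighbour on the posterior side, was listed at 0 in B117H, at 0.0214 FPKM in B117P, at 0.0584 FPKM in B140H and at 0 in B140P. Meis2, a paralogue of Meis1, was at 0.0401 FPKM in B117H and listed at 0 in the other 3 libraries. Each value above 0 of Hoxa10 and Meis2, and that of Meis1 in B117H, corresponds to fewer than 3 estimated fragments, and 3 fragments lie between 0.0386 and 0.108 FPKM for these genes. With 1 library per line the order of neighbouring levels has no replicate error. In RNA from whole cultures, fewer expressing cells and less RNA per cell cannot be told apart.

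**Figure D1:**
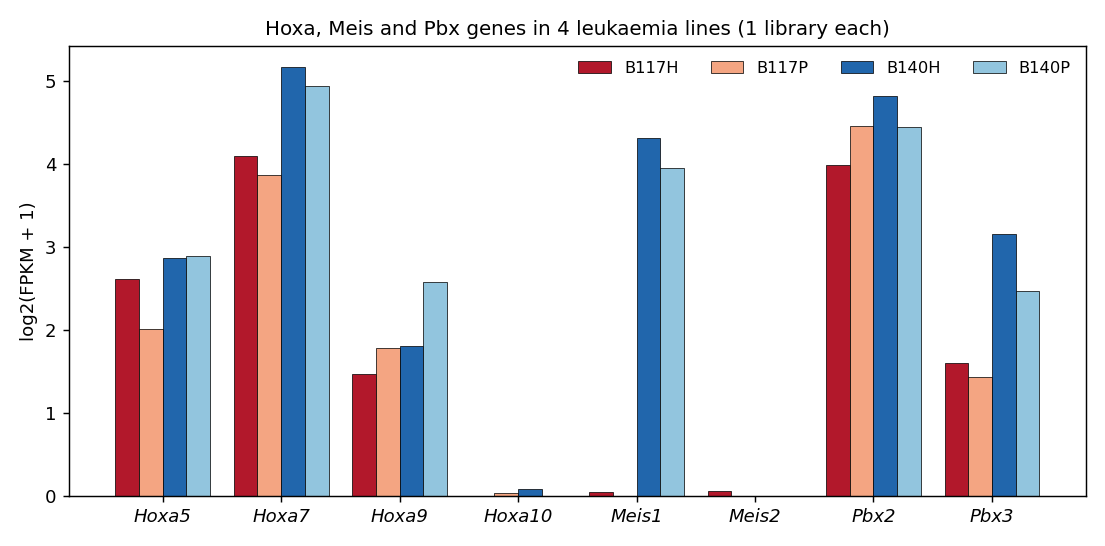
Bars give log2(FPKM + 1) of the 8 genes in the 4 libraries, 1 bar per library, with no error bars as each line has 1 library. Meis1 has tall bars in B140H and B140P, for 18.8 and 14.4 FPKM, and is at 0.0303 FPKM or 0 in the B117 lines, while Hoxa10 and Meis2 are at or next to 0 throughout.

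The libraries themselves set limits on these comparisons. From the spacing of low FPKM values, 19690000 fragments were estimated for B117H, 22040000 for B117P, 24330000 for B140H and 19360000 for B140P. Across genes, Pearson's r of log2(FPKM + 1) was 0.91 between the B117 libraries and 0.94 between the B140 libraries, and at most 0.84 across lineages. The listed coordinates of 6 loci differed between lineages and of 0 within them, and separate normalisation of the lineages, which would touch every level set across them, was not tested. Of 16 myeloid leukaemia markers, 15 in B117H and 16 in B117P, but 8 in B140H and 9 in B140P, reached 1 FPKM. Their summed FPKM was 1581 in B117H and 3548 in B117P, against 553 in B140H and 583 in B140P. Present in the B140 lines were Ctsg, at 270 FPKM in B140H and 337 FPKM in B140P, Prtn3, at 82.0 and 68.1 FPKM there, and Cebpb, at 19.8 and 17.6 FPKM, against 1.17 FPKM in B117H and 7.31 FPKM in B117P. Kit was listed at 0 in both B140 lines, Cd34 was listed at 0 in B140H and at 0.0432 FPKM in B140P, and Mpo was at 0.913 and 10.4 FPKM there. Of 26 markers of other cell types, the B-cell genes Ebf1 and Cd79a were at 23.7 and 16.1 FPKM in B140H and at 24.7 and 6.63 FPKM in B140P, and under 1 FPKM in B117. The summed FPKM of that list was 32.3 in B117H, 39.5 in B117P, 67.8 in B140H and 48.8 in B140P, and 7 of its genes, among them Cd3e, Cd4 and Epcam, were listed at 0 in all libraries. The pan-leukocyte gene Ptprc was at 89.0, 74.5, 50.1 and 53.6 FPKM in B117H, B117P, B140H and B140P. The B140 lines thus held part of the myeloid list, without Kit and with Cd34 at or next to 0, and the differences between lineages below move with these markers. Their part in the differences was not tested.

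Within the HoxA cluster on chromosome 6 the levels were highest at Hoxa7 and close to 0 at the posterior end. In the mm9 coordinates of the files, Hoxa5 is given the span chr6:52119061-52163596, Hoxa7 chr6:52165623-52168572, Hoxa9 chr6:52174053-52177369 and Hoxa10 chr6:52181196-52190853. Hoxa7 made up 54.9% of the summed FPKM of the 10 Hoxa genes compared here in B117H and 51.7% in B117P, and 66.1% in B140H and 58.4% in B140P. The sum was 29.4 FPKM in B117H and 26.2 FPKM in B117P, against 52.6 FPKM in B140H and 50.9 FPKM in B140P. Hoxa7 was 9.10 times Hoxa9 in B117H and 5.57 times in B117P, and 14.0 times in B140H and 5.98 times in B140P. The ratio of these neighbouring genes was therefore higher in each resistant line than in its parent.

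Among the genes on the anterior side, Hoxa4 was at 2.96 FPKM in B117H, 3.45 FPKM in B117P, 4.30 FPKM in B140H and 2.31 FPKM in B140P. Hoxa6 was at 2.38, 2.83, 3.64 and 5.45 FPKM in these libraries in the same order. Hoxa2 was at most 0.716 FPKM, and Hoxa3 was between 0.666 and 1.17 FPKM. None of these levels came near that of Hoxa7. Hoxa10, Hoxa11 and Hoxa13, the posterior genes, were at most 0.0825 FPKM in B117H, 0.0411 FPKM in B117P, 0.0584 FPKM in B140H and 0.129 FPKM in B140P, and Evx1, at the far end, was listed at 0 in all. Of 28 genes of the HoxB, HoxC and HoxD clusters, 25 were listed at 0 in every library and 0 were expressed.

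**Figure D2:**
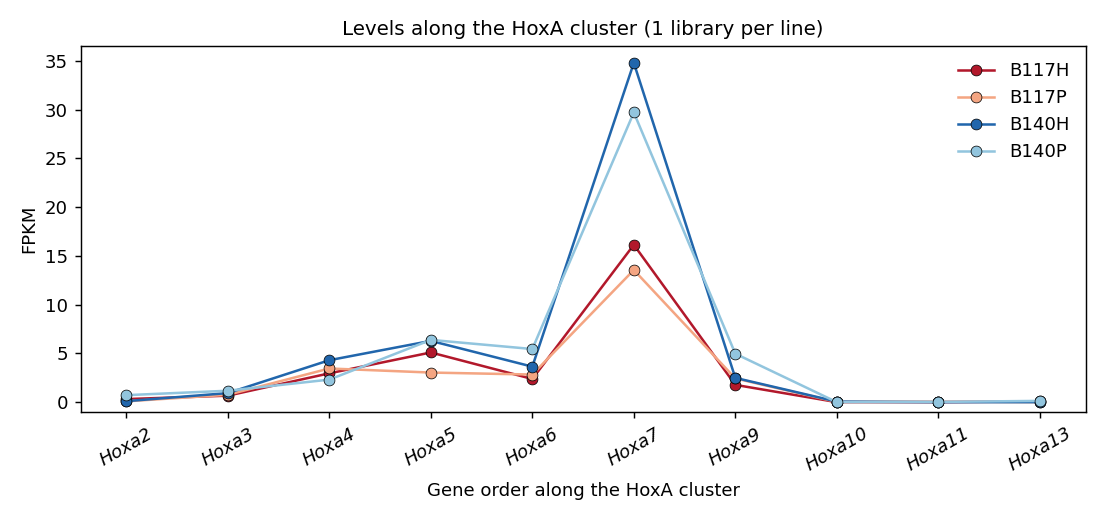
FPKM of 10 Hoxa genes in the order of the cluster, with 1 point per library and lines that join the points of a library. Hoxa7 is the highest gene in each library, between 13.6 and 34.8 FPKM, and Hoxa10, Hoxa11 and Hoxa13 lie at 0.129 FPKM or less.

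A microRNA gene of the cluster, Mir196b, lies between Hoxa9 and Hoxa10 and was listed at 0 in all 4 libraries. The FPKM of so short a gene is no measure of its mature product. The mature sequence is shown because miR-196 microRNAs are known to pair with HOX transcripts. It is taken from RefSeq (GRCm38.p6, chr6:52230129-52230150, minus strand), with the seed, bases 2 to 8, in capitals.
mmu-miR-196b-5p: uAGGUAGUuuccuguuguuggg

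The DNA match of that seed, ACTACCT, occurs 4 times in the 3′ UTR of Hoxa7 in the GENCODE M21 annotation. It occurs 1 time each in Hoxa5, Hoxa9 and Pbx3, and 0 times in Hoxa10, Meis1, Meis2 and Pbx2. How often the match occurs in 3′ UTRs at large was not counted, and any effect of the microRNA on these levels was not tested. The Hoxa7 sites are given 5′ to 3′ on the transcript strand as DNA, with the seed match in capitals, and the Hoxa9 site after them.
Hoxa7, site 1 of 4: ggcacagccaaaatACTACCTa
Hoxa7, site 2 of 4: agaggcactcccaaACTACCTa
Hoxa7, site 3 of 4: aaaccatgatcaatACTACCTa
Hoxa7, site 4 of 4: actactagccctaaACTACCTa
Hoxa9, its site: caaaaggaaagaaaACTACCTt

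The first comparison sets each resistant line against the line from which it was made. In lineage B117, 0 of the 6 expressed genes passed the 2-fold rule on log2(FPKM + 1), against 4.62% of all expressed genes, of which 1.41% were higher and 3.21% lower. In lineage B140, 0 of the 6 passed, against 3.94% of all, with 2.31% higher and 1.63% lower. Relative to the median gene the B140 calls split into 173 higher and 199 lower, in place of 233 and 164. With 6 genes a count of 0 is close to these background shares. The median ratio of the 6 genes was 0.11 in B117 and 0.29 in B140, against -0.03 and 0.11 over all expressed genes.

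Of the 16 myeloid markers, 8 passed the rule in B117 and 1 in B140, all lower, and their part in the ratios below was not tested. Among the HOX genes, Hoxa9 had log2 ratios of -0.31 in B117 and -0.77 in B140, lower in both resistant lines. The FPKM of Hoxa9 in B140H was 50.1% of that in B140P, with an exact Clopper-Pearson 95% interval of 41.6% to 60.1% from estimated fragments. In B117H it was 72.8% of that in B117P, with an interval of 57.2% to 93.2%. These intervals cover counting error only, so the differences exceed counting error and have no replicate error. With values rescaled to TPM without small RNA genes, the Hoxa9 ratio in B140 was -1.01 and passed the rule. Hoxa7 had ratios of 0.24 in B117 and 0.22 in B140, and its FPKM was 119% of that in the parent in B117, with an interval of 106% to 133%, while the interval in B140 was 109% to 126%. Relative to the median gene these ratios were 0.26 and 0.11. Hoxa5 had ratios of 0.60 in B117 and -0.02 in B140. The FPKM of Hoxa5 in B117H was 168% of that in B117P, with an interval of 133% to 211%, and in B140H it was 98.4% of that in B140P, with an interval of 82.5% to 118%. Other genes of its shared span had ratios in B117 of -0.17 for Hoxa4 and -0.18 for Hoxa6.

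Among the TALE partners, Pbx3 had log2 ratios of 0.17 in B117 and 0.68 in B140. Its FPKM in B140H was 173% of that in B140P, with an interval of 147% to 203%. Pbx2 had ratios of -0.47 in B117 and 0.38 in B140, in opposite directions. Its FPKM in B117H was 70.8% of that in B117P, with an interval of 65.0% to 77.0%, and in B140H it was 132% of that in B140P, with an interval of 123% to 141%. Meis1 had a ratio of 0.37 in B140, with an FPKM in B140H of 131% of that in B140P and an interval of 120% to 142%. Of these TALE ratios in B140, centring on the median gene left 0.56 for Pbx3, 0.27 for Pbx2 and 0.25 for Meis1. In B117H the 0.0303 FPKM of Meis1 corresponds to 1.91 estimated fragments, against a listed 0 in B117P.

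Over both lineages, the limma fit with the lineage as a block had 1 residual degree of freedom and called 0 of 10066 genes at an adjusted p of 0.05, a background of 0%, while 218 genes had an unadjusted p under 0.05. None of the 6 genes was called, and the limma adjusted p of each was 0.9995. The mean log2 ratio was -0.54 for Hoxa9, with a standard error of 0.28, and 0.42 for Pbx3, with a standard error of 0.28. It was 0.23 for Hoxa7, with a standard error of 0.23. Hoxa9 was lower in 2 of 2 resistant lines, and Hoxa7 and Pbx3 were higher in 2 of 2. Over the alternatives, the limma mean ran from -0.94 to -0.14 for Hoxa9, from -0.31 to 0.77 for Hoxa7 and from -0.35 to 1.20 for Pbx3. Hoxa7 and Pbx3 turned negative when B117P or B140H was left out, at -0.31 and -0.10 without B117P and at -0.30 and -0.35 without B140H. Without a library the fit has no lineage block and the lineages enter it unequally.

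**Figure D3:**
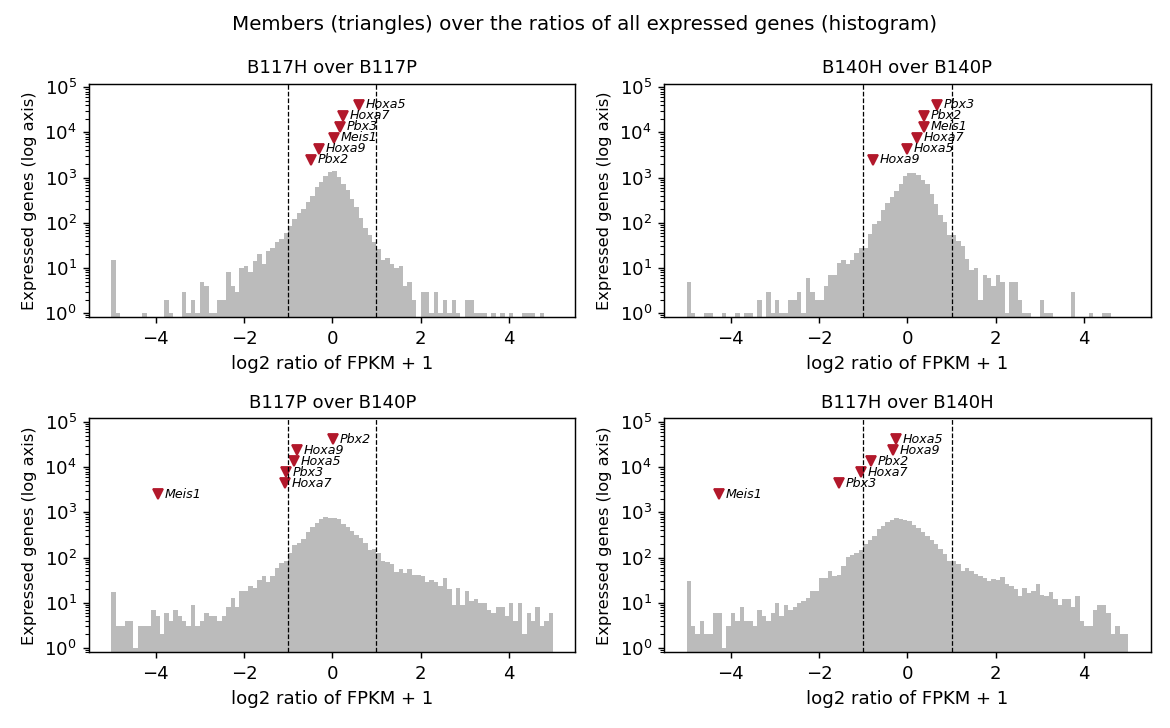
Histograms of log2 ratios of FPKM + 1 of the 10066 expressed genes in the 4 comparisons, with the 6 expressed genes as red triangles and the 2-fold rule as dashed lines at -1 and 1. The count axis is logarithmic, the height of a triangle carries no value, and ratios beyond -5 or 5 are counted in the end bins. No triangle passes a dashed line between a resistant line and its parent, and Hoxa7, Meis1 and Pbx3 pass the lower line between lineages.

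The second comparison sets the lineages side by side. Meis1, Hoxa7 and Pbx3 were lower in B117 than in B140 both among the parental lines and among the resistant lines. Of the 6 genes, 3 passed the 2-fold rule in B117P over B140P, all lower, where 16.6% of expressed genes passed, 10.8% higher and 5.83% lower. In B117H over B140H the same 3 passed, all lower, where 18.9% passed, 9.19% higher and 9.69% lower. Meis1 passes the filter on the mean FPKM only through its B140 values, and other genes can enter the background in the same way. The median ratio of the 6 genes was -0.96 in the parental comparison and -0.95 in the resistant one, against 0.00 and -0.15 over all expressed genes.

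Meis1 had log2 ratios of -3.94 for B117P over B140P and -4.27 for B117H over B140H. These sizes depend on the pseudocount, as Meis1 is at or next to 0 in B117. The FPKM of Meis1 in B117H was 0.161% of that in B140H, with a counting interval of 0.0204% to 0.610%. Hoxa7 had ratios of -1.08 and -1.06, with an FPKM in B117P of 45.6% (41.2% to 50.4%) of that in B140P and in B117H of 46.4% (42.2% to 50.8%) of that in B140H. Relative to the median gene, the Hoxa7 ratio of the resistant lines was -0.91, and in TPM without small RNA genes it was -0.85, which did not pass the rule. Pbx3 had ratios of -1.04 and -1.55, with an FPKM in B117P of 37.2% (28.8% to 47.1%) of that in B140P and in B117H of 25.7% (20.6% to 31.9%) of that in B140H. Hoxa5 had ratios of -0.87 and -0.26, and Hoxa9 of -0.80 and -0.33, all without passing the rule. With a pseudocount of 0.1 the Hoxa5 ratio of the parental lines was -1.05 and passed. Pbx2 had ratios of 0.02 and -0.84, so it was at like levels in the parental lines.

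In the limma fit for the lineage, with the sensitivity class as a covariate and the same 1 residual degree of freedom, 3 of the 6 genes were called, against a background of 11% of all genes tested. Meis1 had a mean log2 ratio of -4.11 ± 0.23 (SD over 2 pairs of lines) and a limma adjusted p of 0.000839. This gene passed the filter only through B140, so its p-value is no independent support for the difference. Hoxa7 had a mean of -1.07 ± 0.01 and an adjusted p of 0.0401, and Pbx3 a mean of -1.30 ± 0.36 and an adjusted p of 0.0389. Each was lower in B117 in 2 of 2 pairs. Hoxa5, Hoxa9 and Pbx2 were not called, with adjusted p-values of 0.265, 0.280 and 0.429. The pairs of a lineage share their origin, so the test compares these lineages only. In fits that leave out a library, the mean of Meis1 lay between -4.29 and -3.92. These fits kept the filter set on all 4 libraries, which Meis1 passes only through B140, so they add no support for its difference. Hoxa7 was lost without B117H (0.149), B117P (0.187), B140H (0.139) or B140P (0.103), and Pbx3 without B117H (0.235), B117P (0.252), B140H (0.1504) or B140P (0.0761), all adjusted p-values of limma fits. Without a filter on low values no gene was called, and the adjusted p of Meis1 was 0.303.

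The surroundings of the genes were read over the 3 nearest expressed genes on each side. Meis1 is listed at chr11:18780431-18918972 in mm9, and its nearest expressed gene at higher coordinates is Spred2, an inhibitor of Ras-ERK signalling, 905 kb away. Spred2 was at 33.5 FPKM in B117H and 30.7 FPKM in B117P, against 0.574 FPKM in B140H and 0.239 FPKM in B140P. Its level was thus high in the lines in which Meis1 was at or next to 0, and low in those in which Meis1 was on. The log2 ratios of Spred2 were 4.68 for B117P over B140P and 4.45 for B117H over B140H, and the other 5 neighbours of Meis1 lay between -0.63 and 0.35. Pbx2, listed at chr17:34729416-34734286, has Rnf5, a ubiquitin ligase, 3.76 kb and Agpat1, an acyltransferase of phospholipid synthesis, 8.52 kb away. Rnf5 had ratios of -0.55 in B117 and 0.34 in B140, and Agpat1 of -0.43 and 0.32, in the same directions as Pbx2 in each lineage. Gpsm3, 0.717 kb away on the other side, had -0.01 and 0.44. The other 3 neighbours were higher in B117H than in B117P, at 1.22 for H2-Ob, which passed the rule, 0.81 for Tap2 and 0.11 for Fkbpl, and had 0.87, 0.47 and 0.07 in B140. Around Pbx3, at chr2:34027429-34227556, 0 of 6 neighbours passed the rule in any of the 4 comparisons. Around Meis2, at chr2:115687000-115890794, Fam98b was lower in B117 in both comparisons between lineages, at -1.30 and -1.56, and Thbs1 at -1.16 in the parental one.

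**Figure D4:**
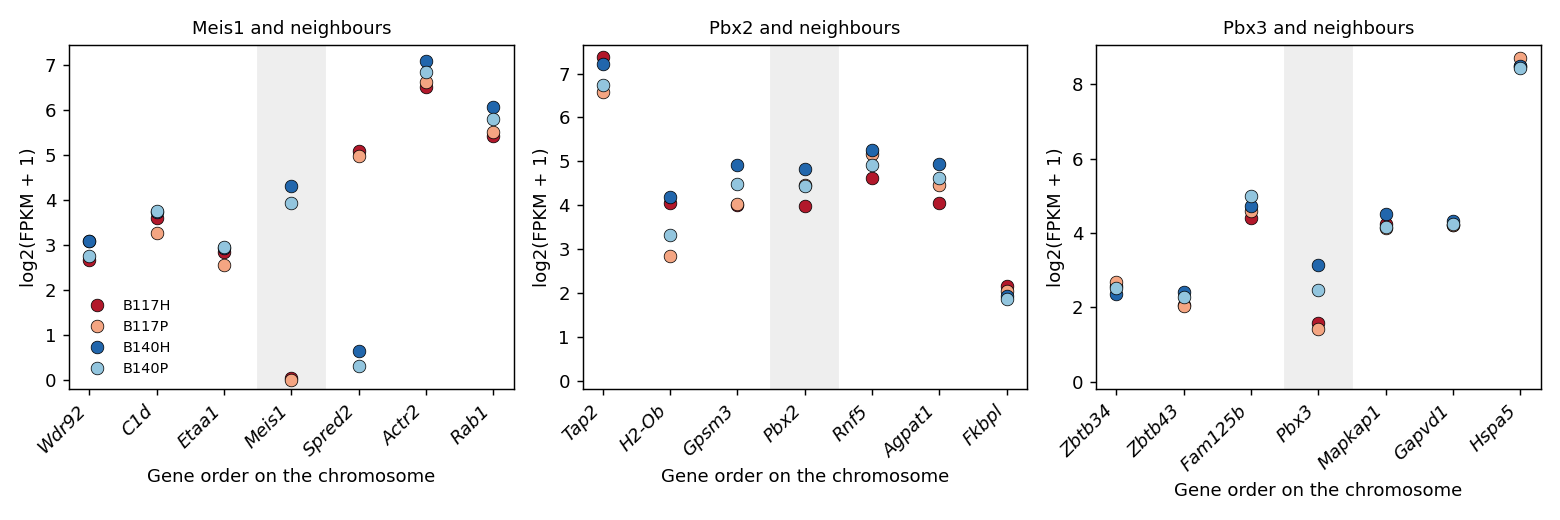
Points give log2(FPKM + 1) in each of the 4 libraries for Meis1, Pbx2 and Pbx3 (shaded) and their 3 nearest expressed neighbours on each side, in chromosome order and not to scale in distance. Spred2, at 33.5 and 30.7 FPKM in B117H and B117P, is high where Meis1 is at or next to 0, and low in B140H and B140P, where Meis1 is at 18.8 and 14.4 FPKM.

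The remaining TALE genes give the setting of Meis and Pbx. Of 15 such genes listed besides the members, 4 were expressed and 0 passed the 2-fold rule in any comparison. Pbx4, a further PBX cofactor, was at 7.59 FPKM in B117H and 5.43 FPKM in B117P, and at 11.7 FPKM in B140H and 6.65 FPKM in B140P. Pbx2 made up 60.7% of the summed FPKM of Pbx2, Pbx3 and Pbx4 in B117H and 74.6% in B117P, and 58.3% in B140H and 64.9% in B140P. Pbx3 made up 8.28% and 6.02% in those B117 lines, and 16.8% and 14.3% in those B140 lines. Pbx2 was thus the highest of these 3 genes in each library. Pknox1, which forms dimers with PBX much as MEIS does, was at 12.5 FPKM in B117H, 8.16 FPKM in B117P, 9.94 FPKM in B140H and 10.3 FPKM in B140P. Tgif2, a TALE repressor, had ratios of -0.80 in B117 and -0.59 in B140, and Tgif1 of -0.56 and -0.29.

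**Figure D5:**
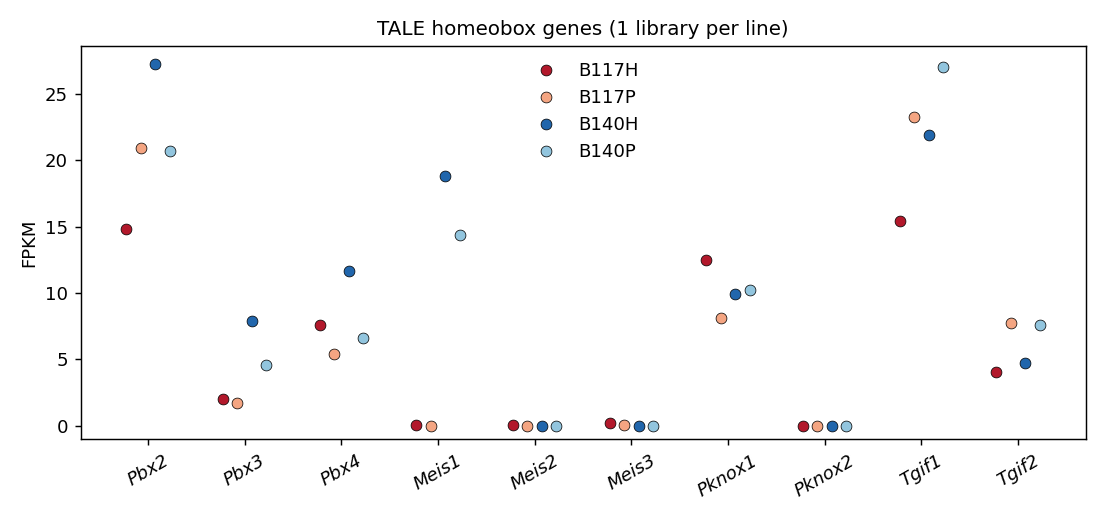
FPKM of Meis, Pbx and other TALE genes, with 1 point per library. Pbx2 is the highest of the 3 Pbx genes shown in each library, and Meis1 reaches 18.8 and 14.4 FPKM in the B140 lines.

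Genes tied to HOXA, MEIS and PBX by earlier work were read as lists. Among 34 expressed regulators of these genes and proteins, 1 passed the rule in B117 and 0 in B140. It was Aff3, an elongation factor gene fused to MLL in some human leukaemias, at 37.4 FPKM in B117H against 13.7 FPKM in B117P. Aff3 was at 0.870 FPKM in B140H and 0.120 FPKM in B140P, so it passed the filter only through B117. The median ratio of the 34 regulators was -0.03 in B117 and 0.12 in B140, the same as the -0.03 and next to the 0.11 over all expressed genes. Among 18 expressed genes reported as targets of HOXA9 and MEIS1, 4 were lower in B117H than in B117P and 0 higher, where 3.21% of all were lower and 1.41% higher, with a median of -0.16. The chemokine genes Ccl4 and Ccl3 had ratios of -3.69 and -2.89, Id2, an inhibitor of bHLH factors, of -1.42, and Gfi1, a myeloid repressor, of -1.28. Ccl3 and Ccl4 lie close together, at chr11:83461345-83462880 and chr11:83476086-83478185, so the counts of targets are not of separate loci. In B140, Bcl2, which restrains cell death, was higher at 1.23 (21.7 FPKM in B140H against 8.68 FPKM in B140P), and Sox4, a target of retroviral insertion, was lower at -1.04. In this comparison the median was 0.03, and 2.31% of all expressed genes were higher and 1.63% lower.

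Between lineages, 8 of the 18 targets were higher and 1 lower in B117P than in B140P, where 10.8% of all expressed genes were higher and 5.83% lower. In B117H over B140H, 4 were higher and 2 lower, where 9.19% of all were higher and 9.69% lower. Cd34, Erg and Gfi1, all higher in the parental comparison, were under 1 FPKM in both B140 lines. They passed the filter only through B117 and could not count as lower, so these counts are no support for a shift of the targets. The median ratio of the targets was 0.66 in the parental comparison and 0.52 in the resistant one, against 0.00 and -0.15 over all expressed genes. Flt3, a growth factor receptor gene tied to Meis1 in mouse myeloid leukaemia, was at 48.0 FPKM in B117H and 32.9 FPKM in B117P, against 347 FPKM in B140H and 249 FPKM in B140P. Erg, an ETS factor gene, was at 38.6 FPKM in B117H and 27.5 FPKM in B117P and listed at 0 in both B140 lines. Flt3 and Erg were chosen after their values were seen. Of 20 expressed genes of other retroviral insertions, 1 was lower in B117H than in B117P (Gfi1) and 1 lower in B140H than in B140P (Sox4), where 3.21% and 1.63% of all were lower. Between lineages, 7 of these were higher and 0 lower in B117P than in B140P, where 10.8% of all were higher and 5.83% lower. In B117H over B140H, 6 were higher and 0 lower, where 9.19% of all were higher and 9.69% lower. The median ratios were 0.54 and 0.55. Kit, Gfi1 and Trib1 were under 1 FPKM in both B140 lines, passed the filter only through B117 and could not count as lower. These counts are therefore no support for a shift of the list. They are also not of separate loci, as Nf1, Evi2a and Evi2b share 1 listed span. Their ratios were 1.64, 4.16 and 1.16 in the parental comparison and 1.49, 4.34 and 0.57 in the resistant one.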

How the data were processed

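RNA from 4 cell lines was sequenced with 1 library each. The deposited values are gene-level FPKM, listed with coordinates of the mm9 build. TopHat2 2.0.4 and Cuffdiff were used with mm9, per the submitters' processing notes. Listed starts were read as counted from 0, since 6284 of 19357 matched spans were then equal to those of a RefSeq table, against 435 on the other reading, so 1 was added.

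Ratios are log2 of FPKM + 1 for the 10066 genes whose mean FPKM was at least 1, called at 2-fold, with no test. The same values entered limma 3.58.1 (R 4.3.3), with lineage and sensitivity as terms and a trended prior variance, and p-values were adjusted by Benjamini-Hochberg at 0.05. The labels tie each resistant line to its parent, which sets the block. Nothing says that libraries are separate cultures, and no line has a second library, so no spread within a line enters the p-values. In the fit with both terms, the 1 residual degree of freedom is how far the change with resistance differs between lineages. The prior variance, drawn from all genes tested, carried 4.78 degrees of freedom, so the p-values rest mostly on it.

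Low FPKM values multiplied by transcript length are spaced by 1 fragment, and this spacing gave the estimated depth from 735 genes with 1 transcript of at least 3000 bases. Between 63 and 89 values per library were used, of which 66.3% to 77.8% lay within 0.15 of a whole fragment. The unit came from the same values, so this is no independent check, and no count-based test was run. Intervals are exact Clopper-Pearson 95% intervals on fragments estimated with the shortest curated coding transcript (GENCODE M21).

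The rule for named genes takes all 8 members, the other HoxA genes and, of each list, up to 4 genes past 2-fold per lineage. Some genes that it takes are not reported here. The members and lists were chosen with earlier results of these data known. Among list genes, 4 symbols were not analysed here. The alternatives were no filter or a stricter one (5 FPKM on average), a pseudocount of 0.1, calls at 4-fold, centring, TPM without 710 small RNA genes and, for limma, no trend, no block or sensitivity term, quantile normalization and leaving out each library. Of the limma fits, only that for resistance was run on simulated data, and its outcome is not reported here. The simulation had equal changes in both resistant lines and a noise SD of 0.15 on log2 values. The lineage fit was not simulated. Scripts ran in Python 3.11.15 with scipy 1.17.1, pandas 2.3.3, numpy 2.4.6 and, for figures, matplotlib 3.10.9.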

Additional observations from a re-analysis of the deposited data

Results flagged for a closer look

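Hoxa5 and Pbx2 moved in opposite directions in the 2 lineages. The log2 ratio of Hoxa5 was 0.60 for B117H over B117P and -0.0198 for B140H over B140P. That of Pbx2 was -0.47 for B117H over B117P and 0.38 for B140H over B140P. With 1 library per line the difference between lineages was not tested. The Hoxa5 value in B140 is within counting error, and the span of Hoxa5 is shared with other genes.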

How the results depend on the processing

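Of 252 values of single genes under alternatives, 223 kept their direction and their side of the rule or threshold, 19 lost a call, 2 gained one and 8 changed direction. A change of filter leaves the ratio of a gene between 2 lines as it was, so such values among the 223 could not change. The 8 that changed direction were limma means of resistant over sensitive lines, none of them called, in fits with no replicate block that leave out a library. Without B117P they were -0.15 for Hoxa5, -0.31 for Hoxa7, -1.77 for Meis1 and -0.10 for Pbx3, without B140H -0.30 for Hoxa7, -1.93 for Meis1 and -0.35 for Pbx3, and without B117H 0.37 for Pbx2. Genes past the rule numbered 465 in B117H over B117P, against 707 with a pseudocount of 0.1, 308 with a minimum of 5 FPKM and 107 with a 4-fold rule. In B140H over B140P they numbered 397, against 647, 260 and 95, and the count of members was 1 in TPM without small RNA genes. In B117P over B140P they numbered 1674, against 1028 with a minimum of 5 FPKM and 610 with the 4-fold rule, and in B117H over B140H 1900, against 1225 and 650. With the 4-fold rule 1 member passed in each comparison between lineages. For resistant over sensitive lines, limma called 0 genes and 0 with no replicate block, 4 with a minimum of 5 FPKM and 0 to 6 when a library was left out, 6 of them without B140P. For the lineages it called 1103, against 0 without a filter, 658 with a minimum of 5 FPKM, 711 with quantile normalization and 215 to 548 without a library (548 without B117H, 525 without B117P, 215 without B140H and 279 without B140P). Hoxa7 was also lost with quantile normalization (limma adjusted p of 0.0627) and Pbx3 with no sensitivity term (0.0530). The cause was not tested. The left-out fits have no block or sensitivity term, and a lone library is assumed to vary like the others. Depth limits Hoxa10, Meis2 and the B117 values of Meis1, which lie under 3 estimated fragments.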

Other observations

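Genes with profiles most like those of Hoxa9 and Meis1 were sought by the Euclidean distance between centred log2(FPKM + 1) values over the 4 libraries, among 2856 genes whose highest and lowest library differed by 2-fold or more. Closest to Hoxa9 were Wars2, a mitochondrial tRNA synthetase gene, at a distance of 0.0732, Dram2 at 0.0913 and Zfp426 at 0.0943. Wars2 was at 1.63 FPKM in B117H and 2.05 FPKM in B117P, and at 2.19 FPKM in B140H and 4.61 FPKM in B140P. Closest to Meis1 were Zfp518b at 0.136, Pdcd1, which encodes the PD-1 receptor, at 0.211 and Chn2 at 0.274. Pdcd1 was at 0.216 FPKM in B117H and 0.0241 FPKM in B117P, against 18.2 FPKM in B140H and 15.8 FPKM in B140P. The 4 points of a profile come from 2 lineages, each with libraries of shared origin.

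Among other homeobox genes, Hlx, a factor of blood cell growth, was at 6.81 FPKM in B117H and 7.97 FPKM in B117P and listed at 0 in both B140 lines. Dlx1 was at 3.42 FPKM in B117H and 1.49 FPKM in B117P, and at 5.36 FPKM in B140H and 9.38 FPKM in B140P. These 2 genes were chosen after their values were seen.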
